A study of Mus musculus with 4 samples.

Results

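Hepa1-6 is a mouse hepatocellular carcinoma cell line, and 41 genes of DNA replication and the G1/S step were followed in it with and without knockdown of Setdb1, a histone methyltransferase acting on H3K9. The genes were taken by symbol from the known parts of the replication machinery, with no threshold on measured values, although earlier results of these data were known when the list was made. All 41 were found among the 54838 named genes in the files, and all 41 passed the low-count filter that left 12821 genes for testing. The control group, labelled shNC and Setdb1 wild type, held 2 libraries and the group labelled shSet and Setdb1 knockdown held 2. Every library came from total RNA of the same cell line, and the series' design text speaks of subclones for the knockdown cells without giving their number. The shRNA sequences, the vector and the time after its delivery are not stated in the labels. Whether each library is a culture of its own is not stated in the labels, and the p-values below reflect how far these libraries differ from each other, a spread that may be technical.

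The libraries held 19513567 to 19615440 expected counts, and the 41 genes together took 0.454% to 0.502% of them. Setdb1 itself stood at 14.6 and 17.5 TPM (an expression level scaled by transcript length and comparable between genes) in shNC 1 and 2. It stood at 3 and 2.51 TPM in shSet 1 and 2 (log2 fold change -2.485, SE 0.18, edgeR adjusted p = 0.00015). Of 18 hepatocyte and hepatoma markers, 11 exceeded 1 TPM in the controls and 12 in the knockdown, and alpha-fetoprotein (Afp) stood at 532 to 728 TPM. Of 13 that were tested, 3 rose (Alb, Fgb and Gpc3) and 3 fell (Apob, Apoe and Hnf4a), and albumin (Alb) stood at 429 and 432 TPM in the controls, against 856 and 732 TPM after knockdown. Ttr, Apoa1, Fga, Ahsg, Serpina1a and Serpina1c stayed under 1 TPM in every library. Summed over their lists, 8 macrophage markers gave 9.69 to 10.6 TPM in the controls and 16.1 to 17.3 TPM in the knockdown, with Ptprc at 0.06 TPM or less and Tyrobp at 0. Cd68 made up most of that sum, at 7.96 and 8.02 TPM against 15.1 and 12.2 TPM, and of the 3 tested in this list 0 passed in edgeR, with 2 higher and 1 lower at an unadjusted p under 0.05 and Csf1r higher in DESeq2. The 6 endothelial markers summed to 0.18 to 0.91 TPM, with Emcn at 0. The 8 fibroblast and stellate markers summed to 1230 to 1377 TPM, of which Dcn gave 1227 to 1372 TPM, with Acta2 at 0. The fibroblast collagen Col1a1 rose, from 0.18 and 0.17 TPM to 0.66 and 0.88 TPM. The part of other cells in the results was not tested.

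DNA replication begins when the origin recognition complex, Cdc6 and Cdt1 load the ring of MCM proteins onto DNA in G1. Cyclin E kinase and E2F transcription factors mark the passage into S phase, and Cdc45, GINS and Mcm10 then turn the MCM ring into a working helicase. Primase and DNA polymerases copy the strands behind it, held by the PCNA clamp that replication factor C loads, while RPA coats single-stranded DNA. Many of these genes are known E2F targets, and their RNA is a common sign of proliferation in liver cancer cells.

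Promoter sequence was compared among the members because E2F sites are the best known feature that such genes share. RefSeq promoters (GRCm38.p6, 250 bases before to 50 after the start) were held for 33 of the 41 genes, in 38 windows. The words TTTCCCGC, TTTGGCGC and TTTCGCGC, read on both strands with overlaps counted, occurred in 13 of these windows (34.2%) and in 606 of all 32851 promoter windows (1.84%). The 13 genes with a word were Mcm3, Mcm5, Mcm6, Mcm7, Orc1, Cdc6, Cdt1, Gins3, Rfc3, Pola1, Pold1, Lig1 and E2f2. The word CCAAT, also on both strands, occurred in 23 of the 38 windows (60.5%) and in 37.4% of all windows. A match is a description of the letters and not evidence of binding.

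The stretches below are those that bear on the genes described here. They show E2F words before the RefSeq start in genes for MCM, GINS, polymerase alpha, helicase loading and the clamp loader. The others are the Rpa1 promoter, in which no such word was found, and the word after the RefSeq start of E2f2. Each is written 5′ to 3′ on the strand of the gene, with the matched words in capitals.
Mcm6, chr1:128359736-128359835, minus strand: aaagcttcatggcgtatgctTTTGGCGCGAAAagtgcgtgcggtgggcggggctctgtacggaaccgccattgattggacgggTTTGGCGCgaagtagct
Mcm5, chr8:75109319-75109418, plus strand: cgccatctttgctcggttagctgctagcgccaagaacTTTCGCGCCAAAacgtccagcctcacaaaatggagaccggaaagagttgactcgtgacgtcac
Pola1, chrX:93632236-93632335, minus strand: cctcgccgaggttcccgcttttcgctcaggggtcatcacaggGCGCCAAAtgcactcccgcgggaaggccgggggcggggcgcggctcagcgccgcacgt
Cdc6, chr11:98907971-98908070, plus strand: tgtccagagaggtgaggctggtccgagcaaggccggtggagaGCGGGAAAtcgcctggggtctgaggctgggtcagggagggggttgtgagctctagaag
Gins3, chr8:95633479-95633558, plus strand: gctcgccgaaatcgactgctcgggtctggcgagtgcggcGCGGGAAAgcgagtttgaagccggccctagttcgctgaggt
Orc1, chr4:108579394-108579453, plus strand: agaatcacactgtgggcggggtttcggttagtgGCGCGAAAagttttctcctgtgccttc
Rfc3, chr5:151651209-151651268, minus strand: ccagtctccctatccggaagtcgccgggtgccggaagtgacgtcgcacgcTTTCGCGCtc
Rpa1, chr11:75348384-75348483, minus strand: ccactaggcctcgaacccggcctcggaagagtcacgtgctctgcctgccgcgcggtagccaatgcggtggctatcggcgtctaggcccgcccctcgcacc
E2f2, chr4:136172294-136172323, plus strand: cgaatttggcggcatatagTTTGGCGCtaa
In Mcm6 and Mcm5 the matches on both strands overlapped into a run of 12 bases, at -110 to -99 and at -153 to -142 from the start, and Mcm6 held a further word at -47 to -40. The E2f2 word lay at bases 40 to 47 after the RefSeq start. Positions here are counted from RefSeq starts, and the GENCODE gene positions given elsewhere can differ from them. The E2f2 stretch ends before the GENCODE start at chr4:136172394. In Orc1, Cdc6, Gins3 and Rfc3 the words lie within the GENCODE gene. The 13 with a word had a median log2 fold change of 0.0024 and 1 called member, and the 20 without had a median of -0.0084 and 1 called member.

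The replication genes as a group stayed close to their control levels. Of the 41, 2 rose, Rpa1 and E2f2, and 39 did not pass, while 0 fell at an adjusted p under 0.05 in edgeR. At an unadjusted p under 0.05 in edgeR, 4 were higher and 2 lower, where 1554 and 1177 of all 12821 tested genes were. DESeq2 called the same counts of 2 higher and 0 lower after adjustment. Over all tested genes 4.2% were called higher and 1.76% lower, so the members' share of higher calls, 4.88%, was near the background. The median log2 fold change of the members was -0.003, with 20 above 0 and 21 below, beside -0.0052 over all tested genes. In bulk libraries a difference in the number of cells that express a gene and one in RNA per cell cannot be told apart.

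A missed threshold does not show that a gene stayed the same, so the 95% interval of each difference was taken as well. For 33 of the 41 genes the whole interval lay within 1.5-fold either way, and for 39 within 2-fold. Over all tested genes 40% had an interval within 1.5-fold. All tested genes together were less abundant than the members, with a median level of 14.6 TPM against 69.7 TPM. The genes whose interval went past 1.5-fold were Mcm6, Rfc1, Rfc3, Rpa1, Rpa3, Pola2, Prim1 and E2f2. Only Rfc1 and E2f2 had intervals that went past 2-fold.

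**Figure D1:**
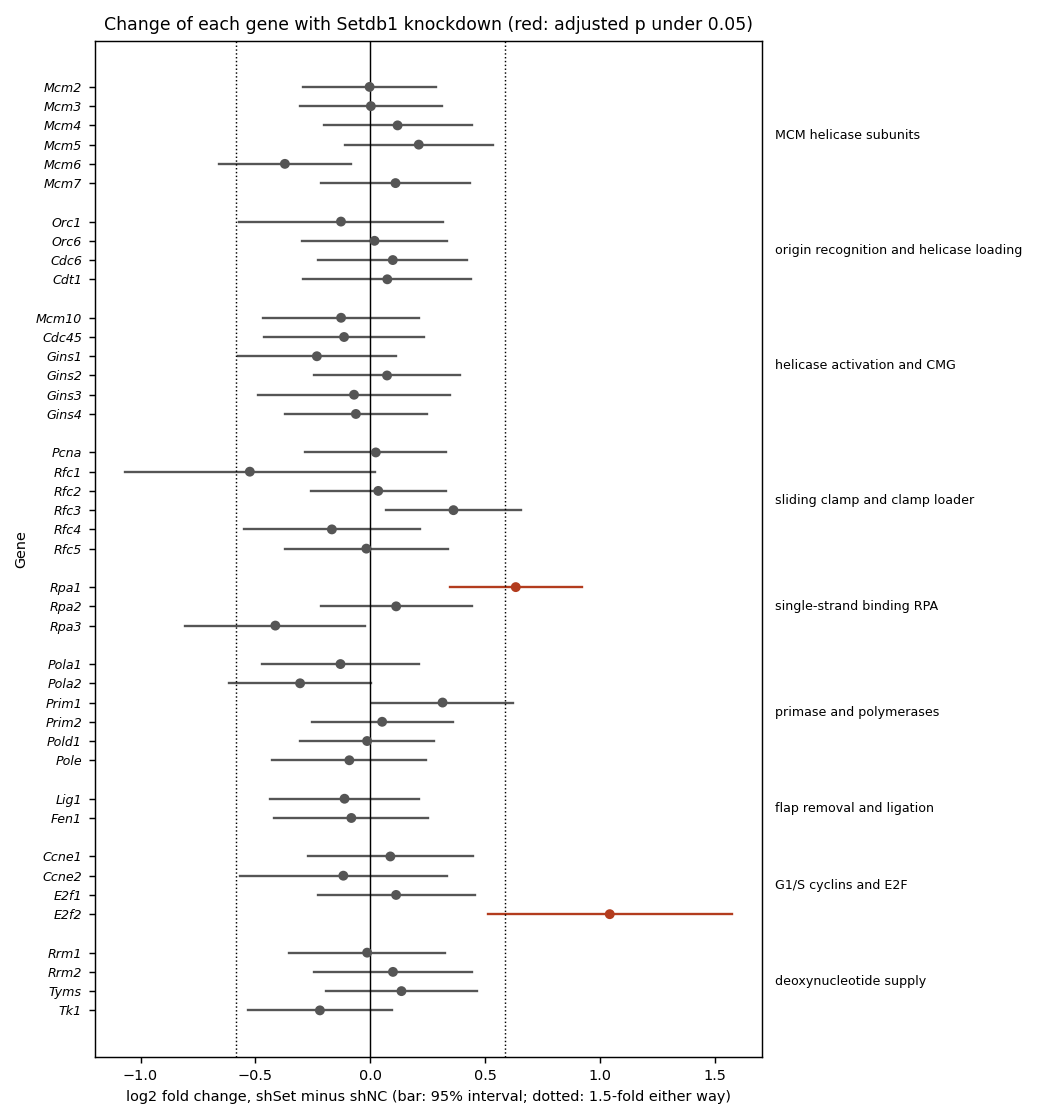
Log2 fold change of each of the 41 genes, knockdown minus control, grouped by role, with its 95% interval from the edgeR fit. Dots for Rpa1 and E2f2, the members that passed the test, are red, and most intervals lie between the dotted lines at 1.5-fold.

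Libraries of 1 group were set beside the groups by medians over the members. The median absolute log2 ratio was 0.15 between the controls, 0.12 between the knockdown libraries and 0.11 between the group means. Means of 2 libraries vary less than single libraries, so these values are not of like kind. In the controls 28 of 41 members were lower in shNC 2 than in shNC 1, where 6312 of all 12821 tested genes were. In the knockdown 27 of 41 were higher in shSet 2 than in shSet 1, where 6395 of the 12821 were. By the log2 ratio of normalised counts, Cdt1 had the widest gap between controls and Rfc1 between knockdown libraries. In normalised counts the knockdown libraries lay above both controls for 4 members (Rpa1, E2f2, Rfc3 and Prim1), where 26.4% of all tested genes did so. They lay below both controls for 9 members (Mcm6, Mcm10, Cdc45, Gins1, Rfc1, Rfc4, Rpa3, Pola2 and Tk1), where 25.2% of all tested genes did so. The other 28 overlapped. Overlap is judged on normalised counts unless TPM is named, and 11 members were classed differently by TPM: Mcm2, Mcm5, Mcm10, Orc1, Gins3, Gins4, Rfc1, Pola1, Pold1, Lig1 and Tyms. By TPM 6 members lay above both controls, as did 21.4% of all tested genes, and 14 lay below, as did 30.2%, a count made after the values were seen.

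Levels spanned a wide range that was kept in every library. Pcna and Mcm7 held the first and second places in each, with means over the 4 libraries of 312 and 295 TPM. Pcna went from 294 to 337 TPM and Mcm7 from 266 to 317 TPM, and they changed places in shSet 2, so their order does not exceed their spread. At the other end, Pola1, Gins3, Orc1 and E2f2 took the last 4 places in the same order in all libraries, with means of 9.15, 6.76, 5.71 and 2.40 TPM. Subunits of 1 complex differed widely in level. The GINS subunits ran from 6.76 TPM for Gins3 to 72.7 TPM for Gins2, and replication factor C from 13.4 TPM for Rfc1 to 116 TPM for Rfc3.

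**Figure D2:**
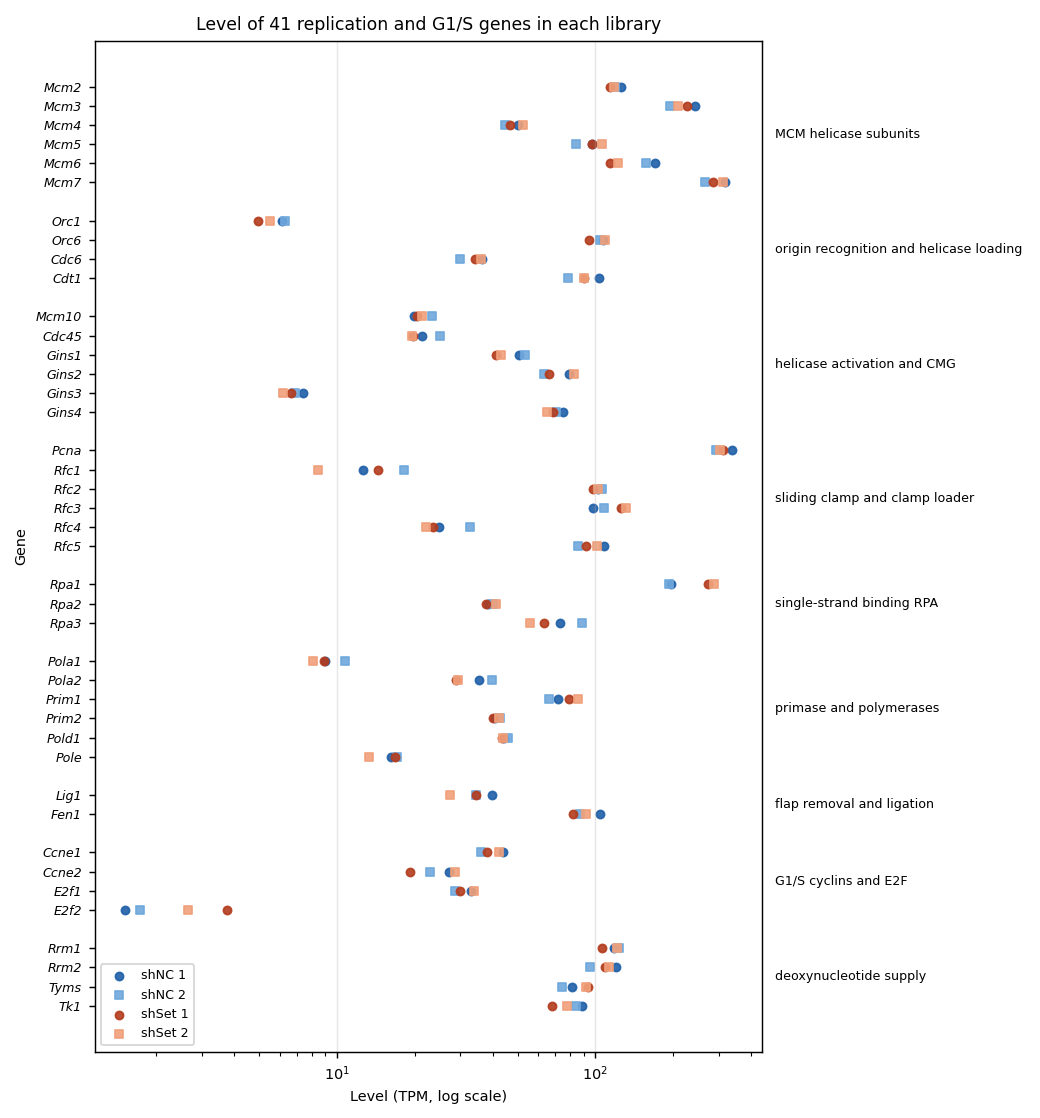
Level of each of the 41 genes in TPM on a log axis, 1 symbol per library, grouped by role. The 4 symbols of a gene mostly lie close together, while genes differ from 2.40 TPM for E2f2 to 312 TPM for Pcna. Both knockdown symbols lie to the right of both control symbols for 6 genes (E2f2, Rpa1, Mcm5, Rfc3, Prim1 and Tyms). They lie to the left of both for 14.

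The 6 MCM helicase subunits, which form the ring that unwinds DNA, gave 0 calls in either direction. Summed, they stood at 1004 and 865 TPM in shNC 1 and 2 and at 883 and 920 TPM in shSet 1 and 2, so the groups overlapped. Mcm7 (chr5:138164583-138172422), the most abundant, stood at 317 and 266 TPM in the controls and 286 and 312 TPM in the knockdown (log2 fold change 0.11, 95% interval -0.22 to 0.44). Mcm7 lies opposite Cops6 and Ap4m1, and its counts were fractional in 3 of the 4 libraries. Mcm2 and Mcm3 had log2 fold changes of -0.003 and 0.0024, and Mcm4 and Mcm5 of 0.12 and 0.21.

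Mcm6 (chr1:128331590-128359664) was the subunit that stood apart from the ring. Its level was 170 and 157 TPM in the controls and 114 and 123 TPM in the knockdown, without overlap. Normalised to library size as CPM, the counts were 318 ± 3.33 for the controls against 246 ± 13.8 after knockdown (SD, n = 2). The log2 fold change was -0.37 (SE 0.13, 95% interval -0.66 to -0.08), and it did not pass after adjustment over all genes (edgeR adjusted p = 0.129). The ratio of Mcm6 to Mcm2 in TPM was 1.35 and 1.32 in the controls, against 1 and 1.04 after knockdown, and was looked at after the values were seen.

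Genes that recognise origins and load the helicase also gave 0 calls among 4. Orc6 (chr8:85299632-85308278), a subunit of the origin recognition complex, stood at 107 and 104 TPM in the controls and 94.2 and 109 TPM in the knockdown. Orc1 (chr4:108579423-108614833), its largest subunit, was far less abundant, at 6.13 and 6.30 TPM against 4.93 and 5.50 TPM. Its log2 fold change of -0.13 had an interval of -0.57 to 0.31. Cdc6, which works with the complex, was at 29.8 to 36.3 TPM and Cdt1, the licensing factor that brings the MCM ring, at 78.0 to 103 TPM. In both the knockdown values lay between those of the controls.

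Factors that switch the helicase on gave 0 calls among 6, and 5 of the 6 log2 fold changes were below 0. Over all tested genes 6478 of 12821 were below 0. Gins1 (chr2:150905400-150931280) was at 50.5 and 53.6 TPM in the controls and 41.4 and 42.9 TPM in the knockdown (log2 fold change -0.23, 95% interval -0.58 to 0.11, edgeR adjusted p = 0.422). Cdc45, Gins1 and Mcm10 had knockdown CPM below both controls, as did 25.2% of all tested genes. The gap was narrow for Cdc45 (30.1 and 34.1 CPM in the controls, 29.8 and 29.5 in the knockdown). It was narrow too for Mcm10 (37.6 and 43.3 against 36.9 and 37.2 CPM), which overlapped in TPM. Gins2 (chr8:120578633-120589304), the most abundant of the group, overlapped, at 78.7 and 63.4 TPM against 66.2 and 82.4 TPM. Gins2 lies opposite Gse1 and had fractional counts in all libraries. The GINS complex joins Cdc45 and the MCM ring in the active helicase, and its other subunits, Gins3 and Gins4, had log2 fold changes of -0.07 and -0.06.

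The clamp and its loader kept their summed level, 644 to 682 TPM in the controls and 665 to 670 TPM in the knockdown. Pcna (chr2:132249162-132253314), the sliding clamp, was at 337 and 294 TPM in the controls and 312 and 305 TPM in the knockdown, between both controls (log2 fold change 0.02, 95% interval -0.28 to 0.33). Its pseudogene Pcna-ps2 held 60.3 to 67.8 expected counts beside 5614 to 6526 for Pcna.

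Within the clamp loader, the large subunit Rfc1 and the small subunit Rfc3 lay on opposite sides of 0. Rfc1 (chr5:65261850-65335670) held 863 and 1009 expected counts in the controls, against 833 and 459 after knockdown, so shSet 1 was near the controls and shSet 2 alone was low. Its log2 fold change of -0.52 (SE 0.24) did not pass (edgeR adjusted p = 0.251), and leaving out a knockdown library moved it either way. Without shSet 1 it was -1.01, and without shSet 2 it was -0.16. With a library left out, the lone library of its group is assumed to vary like the other group, so only effect sizes are given here. Rfc3 (chr5:151642756-151651242) was at 97.6 and 108 TPM in the controls and 125 and 132 TPM in the knockdown, without overlap. Its log2 fold change was 0.36 (SE 0.13) and did not pass (edgeR adjusted p = 0.149). Rfc2, Rfc4 and Rfc5 had log2 fold changes of 0.03, -0.17 and -0.02.

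The smallest adjusted p among the members was in RPA, the trimer that protects single-stranded DNA at forks and at sites of repair. Rpa1 (chr11:75298166-75348324), the large DNA-binding subunit, stood at 196 and 193 TPM in the controls and rose to 272 and 286 TPM in the knockdown. Both knockdown libraries lay well above both controls, which differed from each other by little. In normalised CPM this was 310 ± 12.1 against 482 ± 10.3 (SD, n = 2), a 1.55-fold rise with a 95% interval of 1.27 to 1.89 (log2 fold change 0.63, SE 0.13, edgeR adjusted p = 0.0202). Rpa1 counts were whole in every library, and no gene on the opposite strand overlapped it.

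Neither of the other subunits passed the test, and the subunits were not tested against each other. Rpa2 was at 38.3 and 40.1 TPM in the controls and 37.6 and 41.3 TPM in the knockdown, which overlapped. Its log2 fold change was 0.11 (95% interval -0.22 to 0.44). Rpa3, the smallest subunit, was at 73.2 and 88.5 TPM in the controls and 63.1 and 55.6 TPM in the knockdown (log2 fold change -0.41, SE 0.17, edgeR adjusted p = 0.21). The ratio of Rpa1 to Rpa3 in TPM was 2.68 and 2.18 in the controls, against 4.305 and 5.15 after knockdown, a ratio looked at after the values were seen. On log2(TPM + 1) the Rpa1 difference was 0.52 and did not pass (limma adjusted p = 0.0641).

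**Figure D3:**
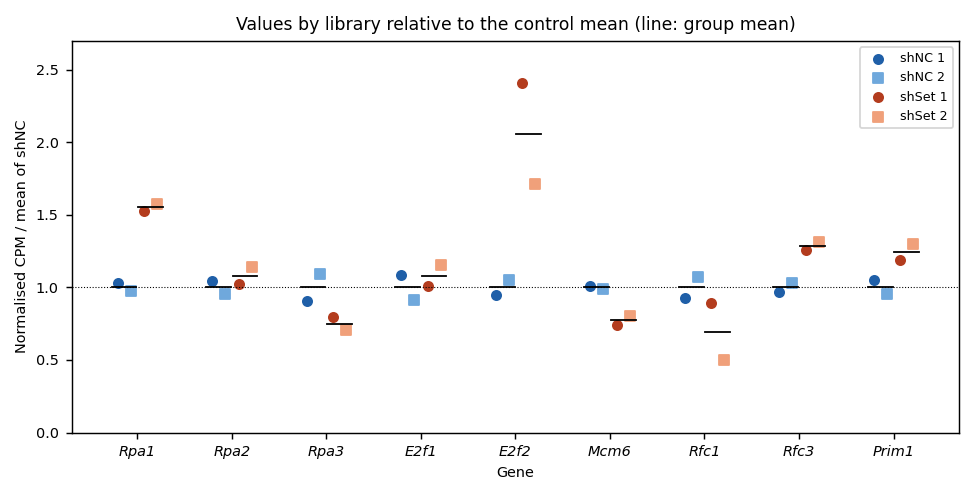
Normalised CPM of 9 members in each library, divided by the mean of the controls, with lines at the group means. Rpa1, E2f2, Rfc3 and Prim1 lie above 1 and above both controls in both knockdown libraries. Rpa2 and E2f1 also lie above 1 in both but overlap the controls. Mcm6, Rpa3 and Rfc1 lie below 1 in both, Rfc1 only slightly in shSet 1.

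Primase and the replicative polymerases showed 0 calls among 6. Prim1 (chr10:128015168-128030037), the catalytic primase subunit, was at 71.7 and 66.3 TPM in the controls and 79.3 and 85.9 TPM in the knockdown (log2 fold change 0.31, SE 0.14, edgeR adjusted p = 0.226). Its partner Prim2 had a log2 fold change of 0.05. Pola2, the accessory subunit of polymerase alpha, was at 35.5 and 39.8 TPM in the controls and 28.9 and 29.4 TPM in the knockdown (log2 fold change -0.31, edgeR adjusted p = 0.241), while the catalytic subunit Pola1 overlapped in CPM but not in TPM (8.95 and 10.7 against 8.90 and 8.05). The leading and lagging strand polymerases Pole and Pold1 had log2 fold changes of -0.09 and -0.01. Summed over the 6 genes the level was 217 to 222 TPM in the controls and 218 to 223 TPM in the knockdown.

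Neither enzyme that finishes the lagging strand passed the test, and at an unadjusted p under 0.05 edgeR gave 0 of the 2. Fen1 (chr19:10199132-10204169), the flap endonuclease, was at 104 and 87.3 TPM in the controls and 81.5 and 92.2 TPM in the knockdown. Lig1 (chr7:13277283-13311433), which seals the nicks, was at 39.6 and 34.5 TPM against 34.4 and 27.3 TPM (log2 fold change -0.11, 95% interval -0.44 to 0.21). Fen1 overlapped between groups, while Lig1 overlapped in CPM and lay lower in both knockdown libraries in TPM. Fen1 overlaps Tmem258 on the other strand and had fractional counts in all libraries.

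Among the G1/S regulators 1 of 4 rose. E2f2 (chr4:136172394-136196057), an activator E2F, held 105 and 118 expected counts in the controls, against 268 and 188 after knockdown, or 1.51 and 1.73 against 3.74 and 2.64 TPM. The groups did not overlap, but the knockdown libraries differed from each other. Normalised CPM was 5.67 ± 0.40 against 11.7 ± 2.81 (SD, n = 2), a 2.06-fold rise with an interval of 1.43 to 2.98 (log2 fold change 1.04, SE 0.24, edgeR adjusted p = 0.0334). Without shSet 1 the log2 fold change was 0.77 and did not pass (adjusted p = 0.159), nor did the difference of 0.67 on log2(TPM + 1) (limma adjusted p = 0.142).

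E2f2 remained the least abundant of the 41 genes in every library. E2f1, the activator that shares its role, was 16.5 to 21.8 times as abundant in TPM in the controls and 7.97 to 12.8 times in the knockdown. Its own level overlapped, at 32.9 and 28.5 TPM against 29.8 and 33.9 TPM (log2 fold change 0.11). The E cyclins drive entry into S phase, and neither passed. Ccne1 (chr7:38097984-38107534) was at 43.9 and 36.0 TPM in the controls and 37.9 and 42.2 TPM in the knockdown, and Ccne2 at 27.1 and 22.9 TPM against 19.2 and 28.7 TPM. Both overlapped, and Ccne2 had fractional counts in all libraries.

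Enzymes that supply deoxynucleotides gave 0 calls among 4. Rrm1 (chr7:102441695-102469771), the large subunit of ribonucleotide reductase, was at 118 and 123 TPM in the controls and 106 and 121 TPM in the knockdown. Its partner Rrm2 was at 120 and 94.8 TPM against 108 and 112 TPM, with the knockdown between both controls. Tk1 (chr11:117815526-117826092), the S-phase thymidine kinase, was at 89.0 and 84.3 TPM in the controls and 67.7 and 77.4 TPM in the knockdown (log2 fold change -0.22, 95% interval -0.53 to 0.09, edgeR adjusted p = 0.408). Thymidylate synthase, Tyms, had a log2 fold change of 0.14 and overlapped in CPM, while in TPM it was at 81.1 and 74.1 in the controls, against 93.3 and 91.8 after knockdown.

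Other genes of the same processes were counted from lists chosen by function. Of 35 other replication fork and origin genes 0 passed in edgeR or DESeq2, with 1 higher and 3 lower at an unadjusted p under 0.05 in edgeR (median log2 fold change -0.04). Of 10 genes of replication-coupled chromatin assembly 0 passed in either tool, with 0 higher and 1 lower unadjusted (median -0.09). Of 28 other nucleotide supply genes 0 passed in edgeR, with 3 higher and 0 lower unadjusted (median 0.06), and DESeq2 called 1 higher, the dNTP hydrolase Samhd1. These medians and counts lie close to those of the 41 members. Of all 12821 tested genes, 1554 were higher and 1177 lower at an unadjusted p under 0.05 in edgeR.

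Of 29 other G1/S regulators 27 were tested, Ccnd2 and Cdkn1c having 0 counts in every library, and 1 rose and 1 fell. These are 3.7% each, beside 4.2% called higher and 1.76% lower over all tested genes. At an unadjusted p under 0.05 in edgeR, 2 were higher and 5 lower, where 1554 and 1177 of all 12821 tested genes were. Ccnd3, a D-type cyclin, rose from 74.3 and 70.8 TPM in the controls to 107 and 106 TPM (log2 fold change 0.64, SE 0.13, edgeR adjusted p = 0.0186). The more abundant D-type cyclin Ccnd1, chosen after its values were seen, lay lower and did not pass. It was at 459 and 488 TPM in the controls and 331 and 361 TPM in the knockdown (log2 fold change -0.38, edgeR adjusted p = 0.153). Cdkn2b, an inhibitor of the D-cyclin kinases, fell from 57.8 and 77.9 TPM to 40.1 and 38.7 TPM (log2 fold change -0.73, SE 0.17, edgeR adjusted p = 0.0345). Without shNC 2 the Cdkn2b difference was -0.52 and did not pass (adjusted p = 0.101). On log2(TPM + 1) neither passed (limma adjusted p = 0.0588 for Ccnd3 and 0.0696 for Cdkn2b). DESeq2 also called Cdk2, the kinase partner of cyclin E, higher.

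**Figure D4:**
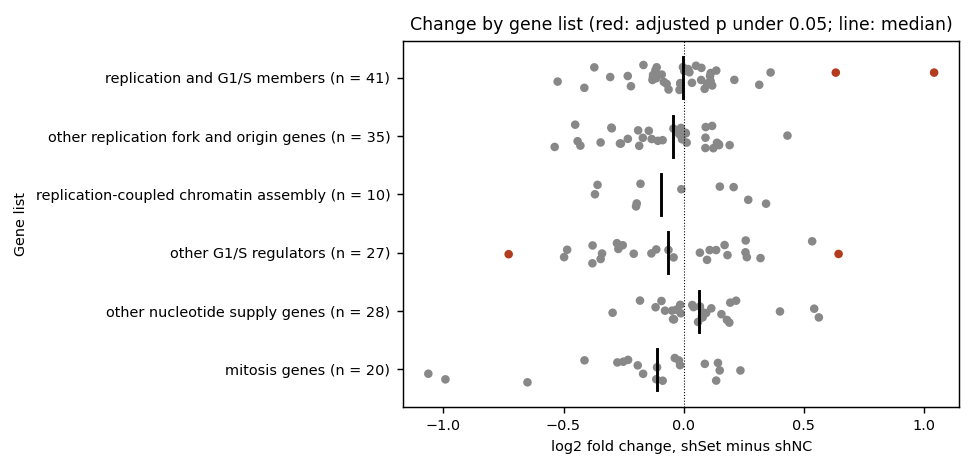
Log2 fold change of each tested gene in the 41 members and in 5 related lists, with a line at the median of each list. Medians lie between -0.11 and 0.06, and the genes that passed, in red, are Rpa1 and E2f2 among the members and Ccnd3 and Cdkn2b among the other G1/S regulators.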

How the data were processed

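RNA was measured in 4 Hepa1-6 libraries, 2 per group by their titles, made with a directional kit per the labels' protocols. The submitters' processing notes list RSEM, STAR, DESeq2 and FastQC, with mm10 and GRCm38 as builds, while versions, the annotation release and the strand setting were not given in the sources. Per the file headers, the deposited expected counts are RSEM estimates in which shared reads are divided among genes, and the deposited TPM values are scaled by effective length to 1 sum per library.

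Expected counts were rounded, library sizes were sums over all 115821 rows, and the 54838 named genes were tested across all genes with edgeR 4.0.16 (quasi-likelihood F-test, TMM, filterByExpr, group alone; R 4.3.3), adjusted by Benjamini-Hochberg at 0.05. CPM is normalised by TMM. SEs come from the F statistic and intervals from the same fit, and with 2 libraries a group they rest on 2 residual and 7.52 prior degrees of freedom. An exact permutation of 2 against 2 cannot go below 0.333. Within a group the libraries were further apart than counting error (mean chi-square of 24.0 and 21.8 a gene), and each was counted as 1. That distance can be technical and does not show that the libraries are independent. Counts within 0.005 of an integer were called whole. Gene positions are from GENCODE M21 (GRCm38). The script was tested on simulated counts with known changes.

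The members and lists were chosen with earlier results of these data known. Values in each library are given for called members and, in each role, for the most abundant gene and the one with the largest change. From other lists called genes are named. Further genes were chosen after their values were seen. Alternatives were DESeq2 1.42.0, limma 3.58.1 on log2(TPM + 1), size factors, filters, the legacy fit, loci in the fit, no mitochondrial genes, each library left out and a replicate block.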

Additional observations from a re-analysis of the deposited data

How the results depend on the processing

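Of 574 pairs of a member and an alternative setting, 565 had the same outcome as the main fit, called or not called. A call was lost in 5 and gained in 4, and 0 reversed a called direction. Only Rpa1 and E2f2 had a call to lose or reverse, so most of the 565 pairs are of members called in neither fit. Rpa1 passed in 12 of 14 alternatives and E2f2 in 11, with log2 fold changes of 0.52 to 0.67 and 0.67 to 1.27. With no low-count filter edgeR called 0 genes higher and 0 lower of 21511 and 0 members higher, where 2012 and 1366 genes and 3 higher and 3 lower members had an unadjusted p under 0.05. Setdb1 did not pass there either (adjusted p = 0.0877), and the prior degrees of freedom were 2 in place of 7.52. On log2(TPM + 1) limma called 245 genes higher and 89 lower and 0 members higher, with a member median of -0.0455 (3 members higher and 4 lower unadjusted). Leaving out each library gave 543 to 981 genes higher, 197 to 695 lower, 1 to 2 members higher, 0 to 1 lower and member medians from -0.0728 to 0.0741. Without shNC 1 the counts were 981 and 695, and without shSet 1 there were 451 lower genes, E2f2 did not pass and Rfc1 passed as lower. The cause was not tested. The prior degrees of freedom were 23.34 without shNC 1, 24.47 without shNC 2 and infinite without shSet 1 or shSet 2, in place of 7.52. Calls with a library left out thus rest on a stronger assumption about variance than those of the main fit.

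The groups share replicate numbers, but the labels do not tie them to a culture or day, and same-numbered libraries deviated in opposite directions (r = -0.24 across 12821 genes, which are not independent replicates). With the replicate block 584 genes were higher and 278 lower, against 538 and 226, with 2 members higher, 0 lower and a median of -0.0015. A crossed pairing, added after this was seen, gave 1352 and 988 genes and 3 and 2 members. The prior degrees of freedom were 23.44 with the replicate block and 46.21 with the crossed pairing, in place of 7.52.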

Other observations

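Mitosis genes were looked at as a neighbouring part of the cell cycle. Of 20 listed genes 0 passed in edgeR or DESeq2, and their median log2 fold change was -0.11. At an unadjusted p under 0.05 in edgeR, 0 were higher and 2 lower, where 1554 and 1177 of all 12821 tested genes were. The proliferation marker Mki67 held 2591 and 4507 expected counts in the controls, against 2680 and 694 after knockdown. The kinetochore motor Cenpe held 719 and 1316 against 728 and 287, and the kinetochore protein Cenpf 875 and 1448 against 972 and 496. In these 3 genes, chosen after their values were seen, shSet 2 in counts was the lowest library and shNC 2 the highest, as it was for Rfc1, while shSet 1 lay between the controls for Mki67, Cenpe and Cenpf. Cdk1, the mitotic kinase, was level at 5020 and 5285 against 4691 and 5420 counts. What sets shSet 2 apart in these genes was not tested.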
